A study of Mus musculus with 48 samples.

Results

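The effect of JQ1 on the non-myocytes of the wild type mouse heart was measured in 6 of the 48 sequenced libraries: 3 from JQ1-treated mice and 3 from vehicle-treated mice. The libraries were chosen by their labels alone, as wild type, non-myocyte and either treatment. JQ1 was given at 50 mg/kg, over a time the sources used here do not state, and the other mice received vehicle. Both groups were wild type mice of the FVB strain, killed at 16 weeks of age. The labels put the word DCM, for dilated cardiomyopathy, as the disease stage on these wild type libraries also. Each library is labelled both as a biological replicate and as pooled, without a number of animals in the sources used here, and p-values measure the spread between these pools. The study asked how bromodomain proteins act on transcription in a heart with a cardiomyopathy mutation, PLNR9C, a mutant of phospholamban; the sources used here do not state how the mutant mice were made. JQ1-treated and vehicle-treated PLNR9C non-myocytes, and JQ1-treated and vehicle-treated wild type cardiomyocytes, 3 libraries each and of the same strain and age, are used below for comparison.

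JQ1 is a small molecule that occupies the acetyl-lysine pockets of the BET family of proteins. These proteins bind acetylated histones at enhancers and promoters and help to bring P-TEFb, the kinase of Cdk9 and cyclin T that releases paused RNA polymerase II. Most P-TEFb is held inactive in a complex of 7SK RNA with Hexim1, Mepce and Larp7. The non-myocytes of the heart are mainly fibroblasts, which make the collagen matrix, endothelial cells, the pericytes and smooth muscle cells around vessels, and resident macrophages. Class II MHC molecules, which present peptides to CD4 T cells, are switched on by the coactivator Ciita, and interferon-induced GTPases defend the cell against pathogens.

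Class II antigen presentation and the interferon response, whose falls are described below, are represented here by promoters that hold short motifs. For genes whose promoter was in RefSeq (GRCm38.p6, 300 bases around the start), both strands were searched for the Y box core GATTGG, one of the elements known to recruit the class II regulators, and for the core of the interferon-stimulated response element, GAAA and GAAA with any 2 bases between. The Y box core was found in a promoter of 18.2% of 27025 mouse genes (32851 promoters) and of 6 of the 7 class II list genes with a promoter there. The interferon core was found in a promoter of 3.99% of those mouse genes and of 17 of 27 interferon response genes. Of the 17 interferon genes with that core, 10 fell with JQ1 and 1 rose, with a median log2 fold change of -1.05. Of the 10 without it, 7 fell and 1 rose, with a median of -0.62. Over all genes with a promoter in the table, the Y box core was in 26.5% of risen and 20.6% of fallen genes, and the interferon core was in 2.51% of risen and 5.10% of fallen genes. The gamma-activated site TTCNNNGAA, searched likewise, was in a promoter of 9.55% of the 27025 mouse genes and of 11 of the 27 interferon genes. These matches are letters in a window and were tested for no factor. The first 4 promoters are from class II genes with the Y box core, and the other 4 from interferon-induced GTPase genes with the interferon core; capitals mark the matches, and overlapping matches run together.
H2-Aa (chr17:34287774-34288073, minus strand): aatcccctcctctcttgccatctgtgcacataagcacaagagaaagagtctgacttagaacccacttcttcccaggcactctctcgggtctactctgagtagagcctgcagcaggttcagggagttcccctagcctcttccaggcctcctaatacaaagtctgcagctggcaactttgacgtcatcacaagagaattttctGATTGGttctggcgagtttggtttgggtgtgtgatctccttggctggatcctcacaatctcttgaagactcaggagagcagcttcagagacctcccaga
H2-Eb1 (chr17:34305617-34305916, plus strand): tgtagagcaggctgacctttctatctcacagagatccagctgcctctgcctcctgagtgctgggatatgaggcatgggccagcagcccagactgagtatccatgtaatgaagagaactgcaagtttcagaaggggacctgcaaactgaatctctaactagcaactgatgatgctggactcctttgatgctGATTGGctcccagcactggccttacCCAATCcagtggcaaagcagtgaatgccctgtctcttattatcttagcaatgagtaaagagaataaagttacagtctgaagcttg
H2-DMb1 (chr17:34152941-34153240, plus strand): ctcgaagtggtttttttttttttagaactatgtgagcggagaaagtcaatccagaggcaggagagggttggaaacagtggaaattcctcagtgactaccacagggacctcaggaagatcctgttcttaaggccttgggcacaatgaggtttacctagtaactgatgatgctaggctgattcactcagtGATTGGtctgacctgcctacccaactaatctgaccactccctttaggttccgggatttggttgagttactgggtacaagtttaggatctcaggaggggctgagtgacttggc
H2-Ob (chr17:34238655-34238954, plus strand): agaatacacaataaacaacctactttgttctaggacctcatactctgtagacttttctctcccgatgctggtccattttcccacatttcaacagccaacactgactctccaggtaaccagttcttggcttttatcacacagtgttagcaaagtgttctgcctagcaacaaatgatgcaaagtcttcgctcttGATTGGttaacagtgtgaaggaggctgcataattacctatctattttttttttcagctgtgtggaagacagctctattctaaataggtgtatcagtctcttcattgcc
Gbp2 (chr3:142620413-142620712, plus strand): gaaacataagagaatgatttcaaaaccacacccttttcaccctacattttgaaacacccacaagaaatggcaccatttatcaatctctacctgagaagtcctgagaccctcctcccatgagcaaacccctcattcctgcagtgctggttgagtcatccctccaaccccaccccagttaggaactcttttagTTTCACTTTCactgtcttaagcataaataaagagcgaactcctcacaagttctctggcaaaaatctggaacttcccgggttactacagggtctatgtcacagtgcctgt
Gbp3 (chr3:142559794-142560093, plus strand): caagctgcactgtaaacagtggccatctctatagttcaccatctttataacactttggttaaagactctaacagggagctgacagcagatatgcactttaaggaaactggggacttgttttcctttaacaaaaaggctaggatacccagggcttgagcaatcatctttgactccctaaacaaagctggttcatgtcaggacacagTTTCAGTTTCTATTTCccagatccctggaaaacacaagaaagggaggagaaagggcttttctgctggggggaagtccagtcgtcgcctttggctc
Gbp5 (chr3:142496684-142496983, plus strand): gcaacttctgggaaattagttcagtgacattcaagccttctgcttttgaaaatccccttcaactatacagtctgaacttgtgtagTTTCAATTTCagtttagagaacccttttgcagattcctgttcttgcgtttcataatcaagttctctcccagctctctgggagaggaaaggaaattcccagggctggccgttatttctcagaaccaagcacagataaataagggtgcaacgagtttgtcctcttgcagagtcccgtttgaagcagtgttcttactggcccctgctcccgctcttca
Irgm1 (chr11:48871371-48871670, minus strand): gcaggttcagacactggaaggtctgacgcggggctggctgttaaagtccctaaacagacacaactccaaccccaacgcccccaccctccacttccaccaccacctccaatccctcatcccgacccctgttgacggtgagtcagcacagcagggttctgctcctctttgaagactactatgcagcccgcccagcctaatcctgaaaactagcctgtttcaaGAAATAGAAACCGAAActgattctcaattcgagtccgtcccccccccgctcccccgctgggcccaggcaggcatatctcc

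The cell fraction was first checked by its markers. Col1a1, a chain of type I collagen (chromosome 11, 94936270 to 94951856 on GRCm38), averaged 1308 ± 223 CPM (the read count scaled to a common library total) in JQ1 and 1220.0 ± 282 CPM in vehicle non-myocytes (SD, n = 3 each). In the cardiomyocyte fraction it stood at 62.5 ± 9.83 CPM with JQ1 and 34.3 ± 7.78 CPM with vehicle. Pecam1, the endothelial adhesion molecule (chromosome 11, 106654218 to 106715281), averaged 787 ± 60.1 CPM in JQ1 and 829 ± 83.9 CPM in vehicle non-myocytes, against 99.9 ± 18.3 CPM and 100.2 ± 7.15 CPM in the same order in cardiomyocytes. Csf1r, the receptor that macrophages need to live (chromosome 18, 61105572 to 61131139), averaged 261 ± 21 CPM in JQ1 and 384 ± 37.3 CPM in vehicle non-myocytes. It stood at 9.89 ± 1.59 CPM in JQ1 and 9.95 ± 1.04 CPM in vehicle cardiomyocytes. Fibroblasts, endothelial cells and macrophages were thus all represented, as the label says, and each marker was far lower in the cardiomyocyte fraction.

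The non-myocyte pools also held cardiomyocyte RNA, and more of it with JQ1. The summed level of 30 cardiomyocyte markers was 14353, 12138 and 15872 CPM in the JQ1 libraries, against 5070, 7467 and 4970 CPM in the vehicle libraries. All JQ1 libraries lay above all vehicle libraries, by a ratio of means of 2.42 (exact two-sided permutation p = 0.10, the smallest that 3 against 3 can give). Set against the cardiomyocyte fraction of the same treatment, the markers put 8.34 to 10.3% of JQ1 reads and 3.93 to 5.91% of vehicle reads down to cardiomyocyte RNA. Mitochondrially encoded genes took 7.18 to 11.3% of reads with JQ1 and 3.71 to 3.91% with vehicle. The cardiomyocyte share alone would give 1.35 to 1.67% with JQ1 and 0.538 to 0.808% with vehicle. Reads in genes numbered 10094255 to 11815003 in JQ1 libraries and 10589355 to 11051878 in vehicle libraries. Red cell genes summed to 46.4, 385 and 1385 CPM with JQ1, while the vehicle libraries spanned 10.1 to 77.3 CPM, so JQ1 replicates 2 and 3 stood above the rest. Genes called cardiomyocyte-high below had a mean level over the 12 cardiomyocyte libraries more than 2 times that over the 12 non-myocyte libraries. Counts are also given after the predicted cardiomyocyte reads were subtracted from every non-myocyte library.

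**Figure D1:**
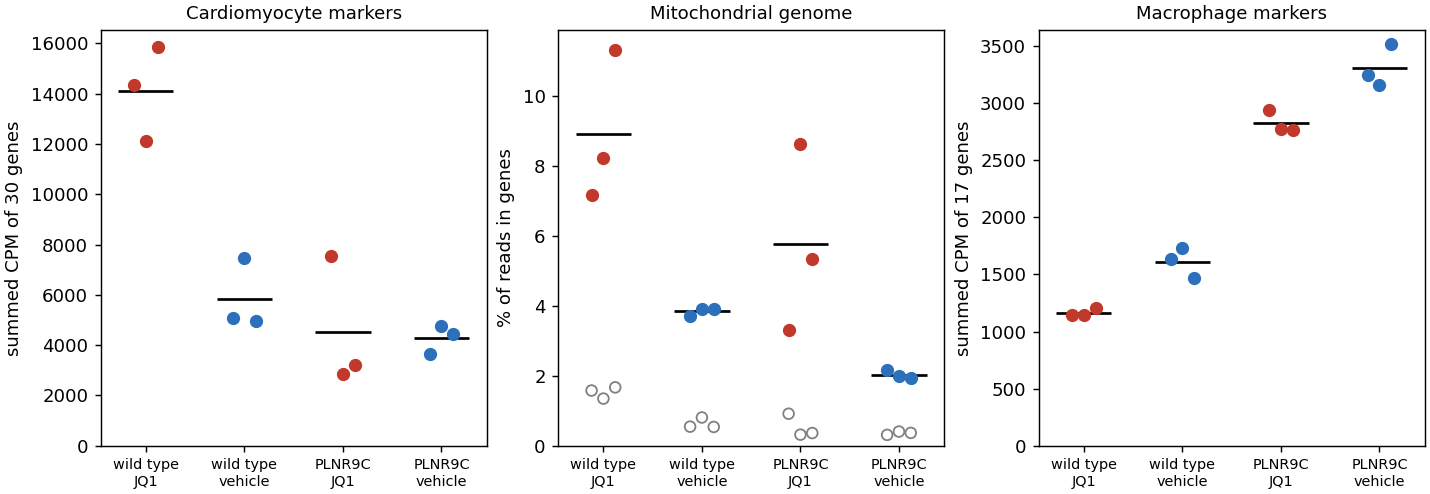
Summed CPM of 30 cardiomyocyte markers (left), percent of reads in mitochondrially encoded genes (middle) and summed CPM of 17 macrophage markers (right) in each non-myocyte library, red for JQ1 and blue for vehicle, with black lines at group means; open grey circles give the mitochondrial percent predicted from the cardiomyocyte share. In wild type the JQ1 libraries lie at 12138 to 15872 CPM of cardiomyocyte markers and the vehicle libraries at 4970 to 7467 CPM.

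JQ1 changed the level of many genes in wild type non-myocytes. Of 15347 genes tested, 5827 (38.0%) passed at an adjusted p under 0.05: 2764 rose (18%) and 3063 fell (20.0%). Falls were larger than rises. At least 2-fold changes numbered 512 among the risen and 1166 among the fallen genes, and the median log2 fold change was 0.58 among risen and -0.82 among fallen genes, against -0.004 over all genes. Risen genes had more reads, with a median of 53.5 CPM in the higher group, against 19.5 CPM for fallen genes and 23.1 CPM for all genes. These levels are not corrected for length, and the median lengths were 3326, 3511 and 3134 bases in the same order. The 3 JQ1 libraries did not overlap the 3 vehicle libraries in 7679 genes (50.0%). Cardiomyocyte-high genes leaned upward: 737 of 1891 rose (39.0%) and 122 fell (6.45%). Among the other 13456 genes 15.1% rose and 21.9% fell. After subtraction of the predicted cardiomyocyte reads 2631 of 15197 genes rose (17.3%) and 2950 fell (19.4%), and 2377 risen and 2758 fallen genes were called both with and without it. With the marker sum as a covariate 867 rose and 1185 fell. In that fit the sum and the treatment largely coincide in wild type. Of the 42 gene lists described below, 26 had no larger share of their tested members called than the 38.0% over all genes, and 16 had a larger one.

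**Figure D2:**
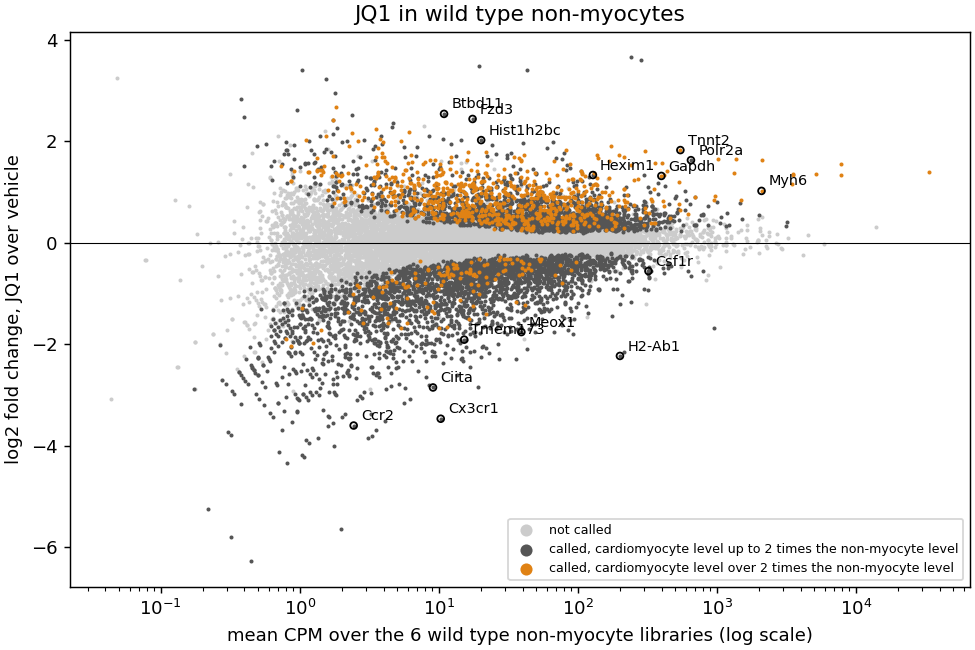
Log2 fold change of JQ1 over vehicle (vertical) against the mean CPM of the 6 wild type non-myocyte libraries (horizontal, log scale) for 15347 genes; grey points were not called, dark points were called, and orange points were called and cardiomyocyte-high. Orange points crowd above 0, where 737 cardiomyocyte-high genes rose, and the largest falls, such as Ccr2 and Cx3cr1, are at low levels.

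Among BET and P-TEFb genes, Hexim1, Brd2 and Mepce rose and Hexim2 fell. These were the 4 called of 12 tested (33.3%), a share near the 38.0% over all genes. Hexim1, which holds P-TEFb inactive and is widely used as a readout of BET inhibition, had 173, 197 and 182 CPM in JQ1 libraries, against 62, 61 and 95.6 CPM in vehicle libraries (log2 fold change 1.33 ± 0.14, adjusted p = 1.8e-05). The groups were far apart, with every JQ1 library above every vehicle library. Brd2 had 538, 545 and 571 CPM with JQ1, against 371, 363 and 416 CPM with vehicle (0.53 ± 0.09, adjusted p = 0.00066). Mepce, the enzyme that caps 7SK RNA, had 126, 116 and 117 CPM with JQ1, against 73.9, 81.1 and 89.8 CPM with vehicle (0.55 ± 0.11, adjusted p = 0.0017). Hexim2, the paralog of Hexim1, went the other way: 0.201, 0.724 and 0.373 CPM with JQ1, against 2.48, 1.61 and 2.32 CPM with vehicle (-2.28 ± 0.41, adjusted p = 0.00079). Brd3 did not pass (0.09 ± 0.08, adjusted p = 0.41), and its libraries overlapped. Polr2a, the largest subunit of RNA polymerase II, was named after its values were seen: it had 1035, 1057 and 859 CPM with JQ1, against 269, 306 and 380.1 CPM with vehicle (1.63 ± 0.14, adjusted p = 3e-06).

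Of 10 genes used as markers of BET inhibitors in blood and tumour cells, 1 rose and 3 fell (40% called, against 38.0% over all genes). The rise was that of Hexim1, and the falls were in Zmynd8, a reader of histone marks, with 16.8, 19.2 and 13.7 CPM in JQ1, against 71.6, 69.7 and 69.4 CPM in vehicle libraries (-2.08 ± 0.12, adjusted p = 3.5e-07), in Cd180, a B cell and myeloid receptor (-3.30 ± 0.70), and in Ccr2. Myc, the growth regulator that JQ1 lowers in blood cancers, had 13.8, 15.2 and 30.8 CPM with JQ1, against 12, 12.9 and 11.6 CPM with vehicle (0.72 ± 0.31, adjusted p = 0.087). Every JQ1 library was above every vehicle library, most of all replicate 3, but the groups lay apart in 50.0% of all genes. Without JQ1 replicate 1 Myc passed (0.93, adjusted p = 0.039). Of 12 genes of the Myc and Max network, Mxd1, a Max partner that opposes Myc, rose (0.52 ± 0.14), and none fell.

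**Figure D3:**
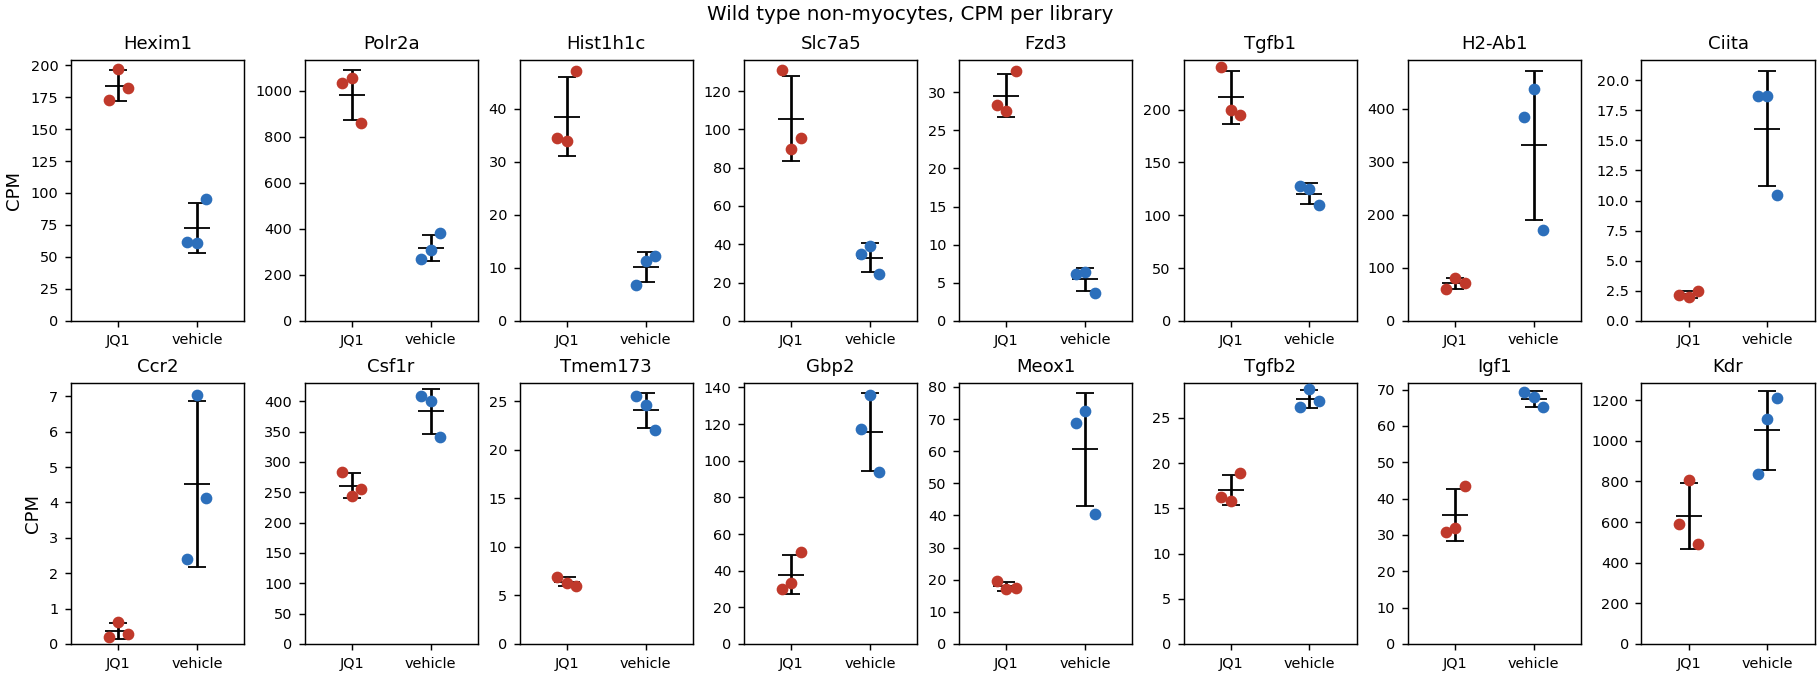
CPM of 16 genes in each wild type non-myocyte library, with JQ1 (red) left of vehicle (blue) and the mean with its SD (black) over 3 libraries each. In each panel the 3 JQ1 points lie wholly above or wholly below the 3 vehicle points, as in 50.0% of all genes tested. Kdr did not pass the test, with an adjusted p of 0.071.

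Class II antigen presentation fell as a whole. Of 11 genes tested 11 fell, against 20.0% over all genes, with a median log2 fold change of -2.23, against -0.004 over all genes. The JQ1 and vehicle libraries of all 11 did not overlap, against 50.0% over all genes. Ciita, the coactivator that class II genes need, had 2.11, 1.97 and 2.52 CPM with JQ1, against 18.7, 18.7 and 10.5 CPM with vehicle (log2 fold change -2.85 ± 0.36, adjusted p = 9.3e-05). The chains of the class II molecule itself are named here after their values were seen. H2-Ab1 (chromosome 17, 34263227 to 34269418) had 60.1, 81 and 71 CPM with JQ1, against 384, 437 and 172 CPM with vehicle (-2.23 ± 0.37, adjusted p = 0.0011). H2-Aa had 67.3, 92.4 and 76.8 CPM with JQ1, against 407, 446 and 201 CPM with vehicle (-2.16 ± 0.34, adjusted p = 0.00068). In both, vehicle replicate 3 was lowest of the vehicle libraries and still above every JQ1 library. H2-Eb1 (-2.29 ± 0.38) and Cd74, the invariant chain (-1.67 ± 0.31), fell likewise. The peptide-loading genes H2-DMb1 (-2.64 ± 0.44), H2-DMb2 (-2.56 ± 0.30) and H2-Ob (-2.94 ± 0.49) were low throughout, under 10 CPM in every library, and reads of the near-identical pair H2-DMb1 and H2-DMb2 may have been shared out between them. The costimulatory genes Cd80 (-1.25) and Cd86 (-0.89) fell less. All 11 fell after the predicted cardiomyocyte reads were subtracted as well, as they did when any 1 library was left out. With the marker sum as a covariate 10 fell.

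The interferon response also fell. Of 34 genes 23 fell (67.6%, against 20.0% over all genes) and 2 rose, with a median log2 fold change of -0.91. After subtraction 22 fell and 2 rose, and with 1 library left out 19 to 25 fell and 0 to 3 rose. With the marker sum as a covariate 16 fell and none rose. Tmem173, which encodes the DNA-sensing adaptor STING, had 6.93, 6.31 and 5.98 CPM with JQ1, against 25.5, 24.6 and 22 CPM with vehicle (log2 fold change -1.91 ± 0.13, adjusted p = 9.8e-07), with the replicates of each group close together. Among the guanylate-binding and immunity-related GTPases, Gbp3 had 7.33, 7.76 and 8.59 CPM with JQ1, against 26, 32.9 and 17.3 CPM with vehicle (-1.68 ± 0.20, adjusted p = 3.6e-05). Gbp7 had 27.8, 34.6 and 30.9 CPM with JQ1, against 107, 129 and 77.7 CPM with vehicle (-1.75 ± 0.20, adjusted p = 4e-05), and Irgm1 13.9, 12.8 and 12.4 CPM, against 36.8, 37.2 and 24.2 CPM (-1.33 ± 0.15, adjusted p = 3e-05). These families hold near-identical copies, so the split of reads between members is uncertain. Gbp2 (-1.61 ± 0.21), Gbp5 (-2.28 ± 0.27) and Iigp1 (-2.17 ± 0.44), named after their values were seen, moved the same way, and the promoters of Gbp2, Gbp3, Gbp5 and Irgm1 printed above hold the interferon core. Stat2, a transcription factor of the response, rose slightly (0.28 ± 0.10, adjusted p = 0.039), a call lost without JQ1 replicate 1 or 2 or vehicle replicate 2 or 3 (lowest 0.18). Irf8, a factor of the myeloid lineage, had 77.7, 58.5 and 58.5 CPM with JQ1, against 51.3, 51.4 and 46.6 CPM with vehicle (0.38 ± 0.12, adjusted p = 0.021), and did not pass without JQ1 replicate 1 (0.24) or vehicle replicate 3 (0.34). Irf1 (0.40 ± 0.34, adjusted p = 0.38) and Irf7 (0.46 ± 0.20, adjusted p = 0.088) did not pass, and Irf1 had 129, 171 and 372 CPM with JQ1, where replicate 3 stood high, against 199, 146 and 164 CPM with vehicle.

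Macrophage genes were lower with JQ1. The 17 macrophage markers summed to 1143 to 1203 CPM in JQ1 libraries and 1465 to 1728 CPM in vehicle libraries. Of them 11 fell (64.7%, against 20.0% over all genes) while none rose (median -0.54). In these pools fewer cells of a type and less RNA per cell cannot be told apart. Csf1r had 284, 243 and 255 CPM with JQ1, against 409, 401 and 341 CPM with vehicle (log2 fold change -0.56 ± 0.10, adjusted p = 0.00082). Mrc1, a scavenger receptor of resident macrophages, fell by a like amount (-0.68 ± 0.14, adjusted p = 0.0022). The chemokine receptors had larger fold changes at lower levels. Cx3cr1, the fractalkine receptor, had 1.51, 1.14 and 2.43 CPM with JQ1, against 12.5, 32.9 and 11.4 CPM with vehicle (-3.46 ± 0.85, adjusted p = 0.011). Ccr2, the receptor that brings monocytes from the blood, had 0.201, 0.621 and 0.28 CPM with JQ1, against 2.4, 7.03 and 4.12 CPM with vehicle (-3.60 ± 0.66, adjusted p = 0.0012), low in every library. Timd4, a marker of embryo-derived resident macrophages, had 4.42, 2.79 and 3.45 CPM with JQ1, against 10.2, 12.2 and 8.15 CPM with vehicle (-1.51 ± 0.25, adjusted p = 0.00048), and Emr1, which encodes F4/80, fell less (-0.79 ± 0.16, adjusted p = 0.002). Lyve1, a marker of vessel-associated macrophages (-0.04 ± 0.30, adjusted p = 0.93), and C1qa (-0.11) did not pass. After subtraction 8 of the 17 fell, with the marker sum as a covariate 5 fell, and with 1 library left out 8 to 13 fell.

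Single genes of other immune functions fell. Of 28 chemokines and inflammatory cytokines 5 fell (17.9%, against 20.0% over all genes) and none rose, and 10 fell with DESeq2. Il1b, the pyrogenic cytokine of activated macrophages, had 9.54, 13.9 and 28.1 CPM with JQ1, against 66.3, 53.4 and 48.4 CPM with vehicle (-1.70 ± 0.41, adjusted p = 0.0092), and Cxcl16, a membrane-bound chemokine, fell (-0.98 ± 0.21, adjusted p = 0.0033). Ccl5, a T cell attractant, had 0.1004, 0.414 and 0.373 CPM with JQ1, against 1.51, 1.61 and 1.2 CPM with vehicle (-2.23 ± 0.45, adjusted p = 0.0017). Ccl12, a ligand of Ccr2, had no read in the JQ1 libraries and 0.621, 1.69 and 0.343 CPM in the vehicle libraries, at least 2.98-fold lower with JQ1 against a floor of 3 reads per library. Of 20 NF-kB subunits and feedback genes 4 fell and 2 rose (30% called, against 38.0% over all genes). There was 1 rise without JQ1 replicate 3 or vehicle replicate 1 or 2. Birc3, a brake on cell death, fell (-1.04 ± 0.15, adjusted p = 0.00014), as did Traf1 (-1.15 ± 0.25) and Nfkb1, the p105 subunit (-0.52 ± 0.10, adjusted p = 0.0012), while Cd40 rose (0.47 ± 0.11, adjusted p = 0.0034). Of 16 complement genes 4 fell (25%, against 20.0% over all genes), among them the C3a receptor C3ar1 (-0.91 ± 0.22, adjusted p = 0.0073). The falls of C1qb, C1qc and C1ra did not pass after subtraction (adjusted p = 0.084, 0.063 and 0.080), which left 1, and without JQ1 replicate 2 the list had 2 falls, without vehicle replicate 1 or 2 it had 1. Of 24 genes of phagocytosis, lysosome and lipid handling 4 fell and 2 rose (25% called, against 38.0% over all genes). There was no rise without JQ1 replicate 3 or vehicle replicate 2. Slco2b1, a transporter of organic anions, had 36.8, 60 and 39.3 CPM with JQ1, against 117, 129 and 145 CPM with vehicle (-1.52 ± 0.22, adjusted p = 0.00028), Msr1, a scavenger receptor, fell (-0.86 ± 0.21), and Ctsz, a lysosomal protease, fell slightly (-0.35 ± 0.09).

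Lymphocyte transcripts were scarce: 14 marker genes summed to 12.8 to 13.7 CPM with JQ1 and 14.9 to 35.3 CPM with vehicle. Of 10 tested 5 fell and 1 rose (60% called, against 38.0% over all genes). There were 3 falls without JQ1 replicate 3, vehicle replicate 1 or vehicle replicate 3, and 1 fall and no rise in the fit of the 6 wild type libraries alone. Cd4, the T helper coreceptor that some macrophages also carry, had 2.81, 3.52 and 2.71 CPM with JQ1, against 14.3, 6.1 and 15.4 CPM with vehicle (-1.98 ± 0.30, adjusted p = 0.00023), and Nkg7, of cytotoxic cells, had 0, 0.31 and 0 CPM with JQ1, against 1.24, 0.931 and 0.858 CPM with vehicle (-3.20 ± 0.78, adjusted p = 0.0056). Klrb1c fell too (-2.14 ± 0.55). Cd3e went up, with 4.82, 2.48 and 4.01 CPM in JQ1 and 1.86, 1.35 and 2.83 CPM in vehicle libraries that overlapped (0.90 ± 0.32, adjusted p = 0.038), and did not pass without JQ1 replicate 1 (0.70) or 3 (0.87) or vehicle replicate 1 (0.85) or 2 (0.69). After subtraction its fold change was -0.85. Its mean level in the cardiomyocyte libraries was 5.92 times that in the non-myocyte libraries, unlike the other lymphocyte markers tested. Of 2 neutrophil genes tested, Csf3r fell (-1.17 ± 0.38, adjusted p = 0.03), a call lost without JQ1 replicate 1 (-0.85) or 3 (-0.91) or vehicle replicate 1 (-1.16) or 2 (-1.07). None of 7 Schwann cell markers passed with edgeR or DESeq2 (1 at an unadjusted p under 0.05). The red cell genes Hba-a2 (40.6, 334 and 1199 CPM with JQ1, against 65.9, 7.62 and 56.4 CPM with vehicle) and Alas2 overlapped between the groups and were called at log2 fold changes of 3.60 and 3.39. Without JQ1 replicate 3 these were 2.13 and 1.88 and did not pass, nor did they without any 1 vehicle library (2.97 to 4.03).

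**Figure D4:**
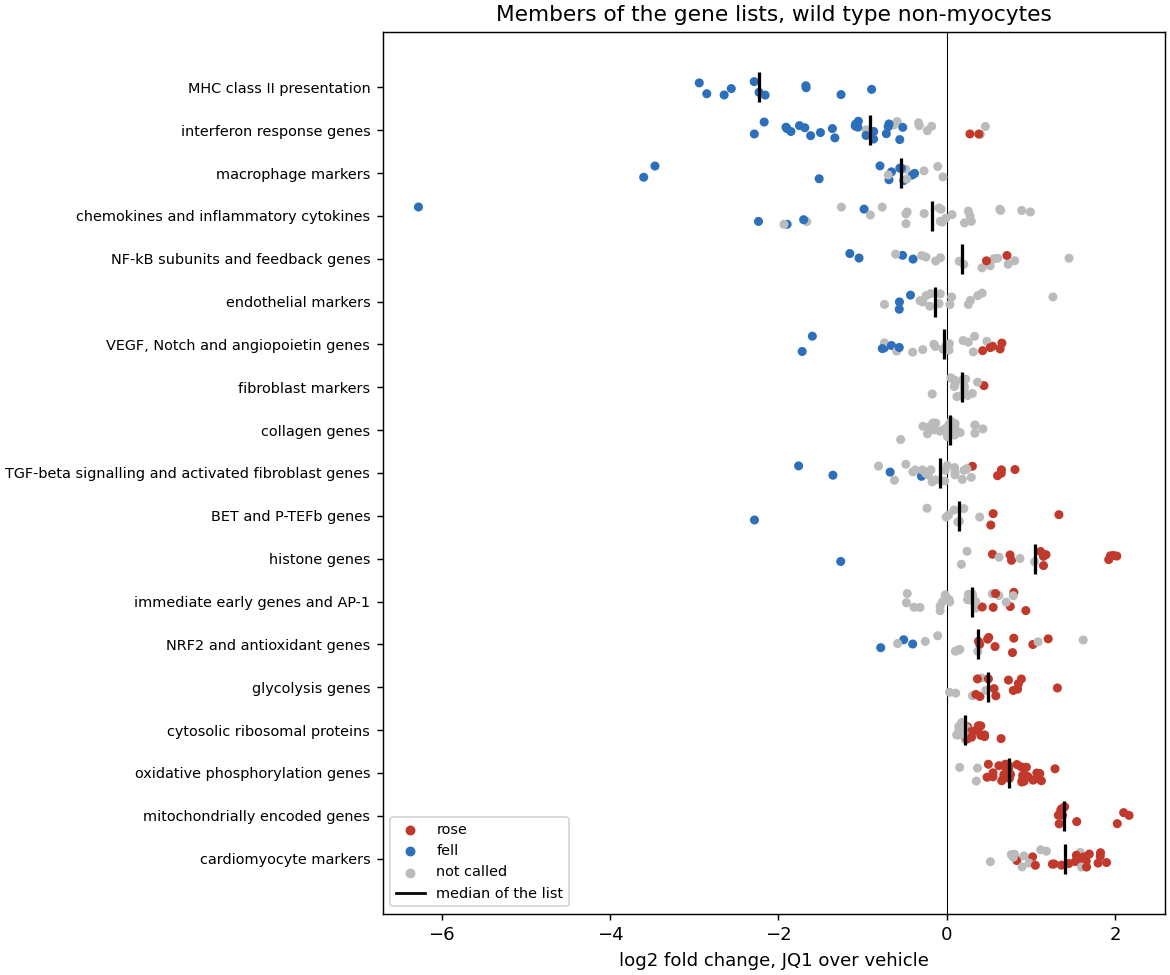
Log2 fold change of JQ1 over vehicle for each tested member of 19 gene lists in wild type non-myocytes, red for risen, blue for fallen and grey for uncalled genes, with a black line at each list's median. The 11 class II genes all lie below 0 (median -2.23) and 35 of 38 oxidative phosphorylation genes rose (median 0.74); the point near -6 is Ccl12, which had no read with JQ1, so its place depends on the prior count.

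Few structural genes of fibroblasts passed the test. Of 15 fibroblast markers 1 rose and none fell, and their sum was 23474 to 32279 CPM with JQ1 and 23112 to 23977 CPM with vehicle. Of 24 collagen genes none passed in either direction (edgeR, median 0.04; 2 at an unadjusted p under 0.05, and 1 fall with DESeq2). Col1a1 had 1542, 1099 and 1283 CPM with JQ1, against 1479.5, 1261 and 920.0 CPM with vehicle (0.10 ± 0.19, adjusted p = 0.71), and Col3a1 had 2745, 1901 and 2211 CPM with JQ1, against 3022, 2258 and 1336 CPM with vehicle (0.05 ± 0.25, adjusted p = 0.89). The groups overlapped in both genes, and the vehicle libraries alone spread widely. Postn, a matrix protein of activated fibroblasts, was at 131, 163 and 229 CPM with JQ1, against 166, 154 and 131 CPM with vehicle (0.21 ± 0.33, adjusted p = 0.65). The risen marker was Dpt, a matrix protein that binds decorin (0.44 ± 0.14, adjusted p = 0.024), which did not pass without JQ1 replicate 3 (0.25) or vehicle replicate 2 (0.43) or 3 (0.43). Of 38 matrix glycoproteins and remodelling enzymes 3 rose and 2 fell (13.2% called, against 38.0% over all genes). The collagen crosslinking enzymes differed: Plod2, a lysyl hydroxylase, rose (0.86 ± 0.22, adjusted p = 0.0093), while the lysyl oxidase relatives Loxl4 (-1.27 ± 0.28, adjusted p = 0.0035) and Loxl3 (-0.66 ± 0.20, adjusted p = 0.019) fell. Timp2, a protease inhibitor, rose (0.39 ± 0.13, adjusted p = 0.025), with 0.29 and an adjusted p = 0.093 without JQ1 replicate 3. Timp2 also missed the threshold without vehicle replicate 1 or 2 (0.37 and 0.39), and Loxl3 without any 1 JQ1 library or vehicle replicate 2 (-0.61 to -0.66). The list had 1 rise without JQ1 replicate 3 or vehicle replicate 1.

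The TGF-beta pathway, which activates fibroblasts, had 5 of 32 genes risen and 5 fallen (median -0.08), a called share of 31.2%, against 38.0% over all genes. There were 3 falls after subtraction and without JQ1 replicate 2 or vehicle replicate 2, and 8 in the fit of the 6 wild type libraries alone. Of the ligands, Tgfb1 rose and Tgfb2 fell. Tgfb1 had 240.4, 199.7 and 195 CPM with JQ1, against 127, 125 and 109 CPM with vehicle (log2 fold change 0.81 ± 0.10, adjusted p = 5.1e-05). Tgfb2 had 16.3, 15.8 and 18.9 CPM with JQ1, against 26.2, 28.2 and 26.8 CPM with vehicle (-0.67 ± 0.11, adjusted p = 0.00043). It was cardiomyocyte-high at a ratio of 2.21 and still fell after subtraction (-0.63, adjusted p = 0.0012). Inhba, the activin A subunit, fell too (-1.35 ± 0.27, adjusted p = 0.0017). Of the receptors, Tgfbr1 rose (0.65 ± 0.12, adjusted p = 0.0011), and Tgfbr2 fell slightly (-0.30 ± 0.09, adjusted p = 0.021), with -0.22 and an adjusted p = 0.079 after subtraction and no call without JQ1 replicate 2 or 3 or vehicle replicate 1 or 2 (-0.25 to -0.29). Ski, which represses Smad-driven transcription, had 653, 598 and 623 CPM with JQ1, against 423, 434 and 375 CPM with vehicle (0.61 ± 0.09, adjusted p = 0.00025). Meox1, a homeobox factor of activated cardiac fibroblasts (chromosome 11, 101877510 to 101894354), had 19.5, 17 and 17.3 CPM with JQ1, against 68.8, 72.6 and 40.5 CPM with vehicle (-1.76 ± 0.29, adjusted p = 0.00095). All JQ1 libraries were below the lowest vehicle library, and with the marker sum as a covariate the fold change was -1.24 (adjusted p = 0.079). Ctgf, a matrix signal downstream of TGF-beta, overlapped between the groups, with 353, 390.3 and 569.8 CPM in JQ1, against 411, 323 and 379 CPM in vehicle libraries (0.24 ± 0.35, adjusted p = 0.62).

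The shares of growth factor and Wnt genes called did not exceed the 38.0% over all genes. Of 21 fibroblast growth factor, PDGF and IGF genes 2 rose and 3 fell (23.8%), with 4 rises without vehicle replicate 3. Igf1, the insulin-like growth factor, had 30.9, 32 and 43.6 CPM with JQ1, against 69.5, 68 and 65.1 CPM with vehicle (-0.93 ± 0.18, adjusted p = 0.0018). Pdgfc (-1.31 ± 0.22, adjusted p = 0.00048) and Hgf, the ligand of Met (-1.55 ± 0.34, adjusted p = 0.0031, named after its values were seen), fell, while Pdgfa (0.78 ± 0.13, adjusted p = 0.0004) and the receptor Fgfr1 (0.59 ± 0.10, adjusted p = 0.00037) rose. Of 24 Wnt ligands, receptors and antagonists 5 rose and 4 fell (37.5%). The receptor Fzd1 had 78.4, 80.2 and 94.9 CPM with JQ1, against 46.9, 48.9 and 48.2 CPM with vehicle (0.82 ± 0.12, adjusted p = 0.00018), and Fzd7 (0.64 ± 0.14) and Fzd8 (0.50 ± 0.12) rose as well. The ligand Wnt2 fell (-1.26 ± 0.28, adjusted p = 0.0031). Gli1, a transcription factor that hedgehog signalling induces, was among the largest falls: it had 3.62, 3.41 and 3.27 CPM with JQ1, against 16.9, 14.4 and 22.2 CPM with vehicle (-2.38 ± 0.22, adjusted p = 6.3e-06). Ptch1, a hedgehog receptor and target, did not pass (-0.13 ± 0.13, adjusted p = 0.46, named after its values were seen).

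Few endothelial markers passed. They summed to 8931 to 10674 CPM with JQ1 and 9473 to 11164 CPM with vehicle, and 3 of 18 fell (16.7%, against 20.0% over all genes) while none rose. Without JQ1 replicate 2, 5 fell and 2 rose, without JQ1 replicate 3, 2 fell and 2 rose, and with DESeq2, 4 fell and 2 rose. Pecam1 had 789, 846 and 726 CPM with JQ1, against 744, 829 and 912 CPM with vehicle (-0.07 ± 0.14, adjusted p = 0.71). Tek, the angiopoietin receptor Tie2, had 285, 280.2 and 248 CPM with JQ1, against 387, 383 and 430.2 CPM with vehicle (-0.56 ± 0.16, adjusted p = 0.012), and Ptprb, the phosphatase that acts on Tie2, fell by as much (-0.56 ± 0.15, adjusted p = 0.0089). Robo4 fell slightly (-0.43 ± 0.15, adjusted p = 0.033) and did not pass after subtraction (-0.36) or without any of 5 of the 6 libraries (-0.28 to -0.47). Kdr, the main VEGF receptor, had 591, 809 and 490.1 CPM with JQ1, against 835, 1105 and 1211 CPM with vehicle (-0.74 ± 0.30, adjusted p = 0.071). Its groups did not overlap, as in 50.0% of all genes. It passed in the fit of the 6 wild type libraries alone (adjusted p = 0.021), with DESeq2 (adjusted p = 0.026) and without JQ1 replicate 2 (-0.95). Of 26 VEGF, Notch and angiopoietin genes 5 rose and 6 fell, a called share of 42.3%, near the 38.0% over all genes. Without JQ1 replicate 1 or 2 or vehicle replicate 1 or 3 there were 3 rises, and without vehicle replicate 2 there were 3 falls. Ligands differed in direction: Vegfa rose (0.64 ± 0.11, adjusted p = 0.00044), and so did the Notch ligand Jag1 (0.55 ± 0.10, adjusted p = 0.00063), while Vegfc, the lymphatic ligand, fell (-0.74 ± 0.18, adjusted p = 0.0046). The mean level of Vegfa in cardiomyocyte libraries was 4.15 times that in non-myocyte libraries, and after subtraction it still rose (0.49, adjusted p = 0.0052). The coreceptor Nrp1 had 470.4, 581 and 460.3 CPM with JQ1, against 794, 777 and 809 CPM with vehicle (-0.65 ± 0.16, adjusted p = 0.0049).

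Of 17 endothelial tone and clotting genes 2 rose and 3 fell (29.4%, against 38.0% over all genes). There were 4 rises with DESeq2 and 1 without JQ1 replicate 3 or vehicle replicate 2 or 3. Nos3, the endothelial nitric oxide synthase, had 542, 346 and 394 CPM with JQ1, against 266, 282 and 232 CPM with vehicle (0.72 ± 0.16, adjusted p = 0.0041). Ednrb, the endothelin B receptor, had 37.3, 38.7 and 24.6 CPM with JQ1, against 84.4, 85.3 and 74.5 CPM with vehicle (-1.28 ± 0.21, adjusted p = 0.00054), with no overlap in either gene. The bradykinin receptor Bdkrb2 (-1.81 ± 0.36, adjusted p = 0.0016) and tissue factor, F3 (-0.86 ± 0.23, adjusted p = 0.01), fell. Of 15 adrenergic, angiotensin and natriuretic receptors and their relatives 2 rose and 3 fell (33.3% called). Npr1, the receptor of atrial and B-type natriuretic peptides, rose (0.57 ± 0.13, adjusted p = 0.0035), Ednra, the endothelin A receptor, fell (-0.78 ± 0.18, adjusted p = 0.0043), and Agt, angiotensinogen, a cardiomyocyte-high gene, rose at a low level (2.41, 1.45 and 2.24 CPM with JQ1, against 0.887, 0.508 and 0.858 CPM with vehicle). Of 13 smooth muscle and pericyte markers 3 fell and 1 rose (30.8% called). Notch3 (-0.51 ± 0.14, adjusted p = 0.014), Cspg4 (-0.44 ± 0.15, adjusted p = 0.038) and the potassium channel subunit Abcc9 (-0.40 ± 0.12, adjusted p = 0.021) fell modestly, and all of them missed the threshold without JQ1 replicate 3 or vehicle replicate 3 (-0.32 to -0.43). Without JQ1 replicate 1, 1 of the 3 passed. The risen member, Des, is a muscle filament at 14.4 times the level in cardiomyocyte libraries, and it did not pass after subtraction (1.06, adjusted p = 0.32). Rgs5, a pericyte marker, was at 658, 728 and 616 CPM with JQ1, against 639.7, 650.1 and 692 CPM with vehicle (0.01 ± 0.12, adjusted p = 0.94). Of 10 epicardial and mesothelial markers 1 rose, the transcription factor Wt1 (0.51 ± 0.18, adjusted p = 0.04), whose groups overlapped and which did not pass without JQ1 replicate 1 (0.31) or 2 (0.57) or vehicle replicate 2 (0.56) or 3 (0.35).

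Histone transcripts were higher with JQ1. Of 17 histone genes 11 rose and 1 fell (70.6% called, against 38.0% over all genes). Their median log2 fold change was 1.05, against -0.004 over all genes. After subtraction again 11 rose and 1 fell, and with the marker sum as a covariate 7 rose and none fell. With 1 library left out 8 to 11 rose and 0 to 1 fell. Hist1h2bc had 28.6, 23.1 and 45.4 CPM with JQ1, against 7.81, 8.04 and 8.06 CPM with vehicle (log2 fold change 2.02 ± 0.27, adjusted p = 0.00014), and the linker histone gene Hist1h1c had 34.4, 33.9 and 47.2 CPM with JQ1, against 6.83, 11.3 and 12.2 CPM with vehicle (1.93 ± 0.21, adjusted p = 2.8e-05). Variant genes that are transcribed outside S phase rose with them: H3f3b had 510.3, 547 and 507 CPM with JQ1, against 194, 249 and 247 CPM with vehicle (1.18 ± 0.14, adjusted p = 2.9e-05), H2afz rose by 1.15 ± 0.13 and H3f3a by 0.77 ± 0.09. The clustered histone genes are near-identical, so reads may have been shared between copies. Of 32 cell cycle genes 7 rose and 5 fell, a called share of 37.5%, against 38.0% over all genes. There were 2 falls without JQ1 replicate 1 and 3 without JQ1 replicate 2 or vehicle replicate 1 or 2. Pcna, the sliding clamp of replication, had 77.4, 72.4 and 70.4 CPM with JQ1, against 41.2, 38.1 and 44.6 CPM with vehicle (0.83 ± 0.08, adjusted p = 1.1e-05), and E2f1 rose (0.83 ± 0.18, adjusted p = 0.0028). Cdk6, a G1 kinase, had 4.92, 4.24 and 4.58 CPM with JQ1, against 11.4, 10.7 and 10.7 CPM with vehicle (-1.25 ± 0.16, adjusted p = 6.1e-05), and Mcm3, a helicase subunit, fell (-1.05 ± 0.17, adjusted p = 0.00037), so that the replication genes did not move one way. Of 20 cell cycle inhibitors and p53 targets 6 rose and 1 fell (35% called, against 38.0% over all genes). Gadd45a (0.91 ± 0.15, adjusted p = 0.00048), Sesn2 (0.62 ± 0.13, adjusted p = 0.0017) and Ccng1 (1.01 ± 0.14, adjusted p = 0.00012) rose, as did Cdkn2b, the p15 inhibitor of Cdk4 and Cdk6, at a low level (1.41, 2.48 and 1.77 CPM with JQ1, against 0.71, 0.339 and 0.515 CPM with vehicle). Ccng1 was at 7.43 times the level in cardiomyocyte libraries, and after subtraction it rose by 0.84 (adjusted p = 0.00036).

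Stress programmes moved in single genes. Of 27 immediate early genes 6 rose and none fell (22.2% called, against 38.0% over all genes). There were 3 rises without JQ1 replicate 3 or vehicle replicate 2. Jund, an AP-1 subunit, had 424, 358 and 369 CPM with JQ1, against 214, 219.7 and 227 CPM with vehicle (0.80 ± 0.09, adjusted p = 1.8e-05), and Klf10, a TGF-beta-induced repressor, had 210.1, 161 and 142 CPM with JQ1, against 83.8, 96.2 and 87.5 CPM with vehicle (0.94 ± 0.15, adjusted p = 0.00029). Klf4 (0.58 ± 0.16) and Atf3 (0.76 ± 0.22) rose too, and Atf3 missed the threshold without JQ1 replicate 3 (0.54) or vehicle replicate 2 (0.66). In the integrated stress response 5 of 22 genes rose while 2 fell (31.8% called, against 38.0% over all genes). There were 2 rises without JQ1 replicate 3 and 3 without vehicle replicate 2 or 3. Slc7a5, which carries large amino acids into the cell, had 131, 89.9 and 95.7 CPM with JQ1, against 35.1, 39.3 and 24.7 CPM with vehicle (1.67 ± 0.24, adjusted p = 0.00033). Psat1, of serine synthesis, rose (0.66 ± 0.19), with no call without JQ1 replicate 3 (0.56) or vehicle replicate 3 (0.49), and Trib3, a target of the same response, fell (-0.80 ± 0.18, adjusted p = 0.0034). Of 19 unfolded protein response genes 1 fell, the chaperone Dnajb11 (-0.41 ± 0.14, adjusted p = 0.031), which did not pass after subtraction (-0.38) or without any of 5 of the 6 libraries (-0.32 to -0.43). None of 14 heat shock genes passed with edgeR or DESeq2, or at an unadjusted p under 0.05. Of 21 NRF2 and antioxidant genes 9 rose and 3 fell (57.1% called, against 38.0% over all genes), with 1 fall without JQ1 replicate 3. Gclc, the first enzyme of glutathione synthesis, had 149.8, 146 and 150.1 CPM with JQ1, against 65.4, 65.4 and 62.4 CPM with vehicle (1.21 ± 0.13, adjusted p = 1.7e-05), and Prdx1, a peroxidase, rose (0.80 ± 0.09, adjusted p = 2e-05). Keap1, which marks NRF2 for destruction, had 32.4, 35.4 and 31.7 CPM with JQ1, against 55.1, 55.6 and 60.4 CPM with vehicle (-0.78 ± 0.09, adjusted p = 3.6e-05). Of 16 circadian clock genes 1 rose, Cry1 (0.96 ± 0.32, adjusted p = 0.035), and did not pass without JQ1 replicate 2 (0.88) or 3 (0.96) or vehicle replicate 1 (0.74) or 2 (0.89).

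Lipid genes gave no common direction. Of 21 genes of cholesterol synthesis and uptake 5 rose and 3 fell (38.1% called, against 38.0% over all genes). Insig1, the sterol-sensing brake on synthesis, had 44.9, 46 and 48.4 CPM with JQ1, against 31.4, 31 and 24.4 CPM with vehicle (0.68 ± 0.11, adjusted p = 0.00026). Hsd17b7 (0.90 ± 0.16) and Sqle (0.79 ± 0.18) rose, while Lss, the next enzyme after Sqle, had 2.31, 3 and 2.52 CPM with JQ1, against 6.83, 6.52 and 6.95 CPM with vehicle (-1.37 ± 0.19, adjusted p = 0.00013). Of 13 endothelial lipid uptake genes 3 fell (23.1%, against 20.0% over all genes), and 1 without vehicle replicate 3. Pparg, the nuclear receptor that drives fatty acid uptake, had 26.6, 32.1 and 20.2 CPM with JQ1, against 45.8, 53.3 and 63.4 CPM with vehicle (-1.05 ± 0.24, adjusted p = 0.0052). Fabp5, a fatty acid binding protein, fell (-0.59 ± 0.16, adjusted p = 0.01), with -0.40 and an adjusted p = 0.052 without vehicle replicate 3. Lipe, a lipase whose groups overlapped, was called at -0.53 ± 0.17, adjusted p = 0.03, with no call without JQ1 replicate 1 (-0.46) or 3 (-0.41) or vehicle replicate 3 (-0.30).

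Genes of energy metabolism were higher with JQ1, together with the cardiomyocyte markers. Of 38 nuclear oxidative phosphorylation genes 35 rose and none fell (median 0.74), and 37 of the 38 were cardiomyocyte-high. The called share was 92.1%, against 38.0% over all genes. After subtraction 23 rose. Atp5a1, the alpha subunit of ATP synthase, had 894, 813 and 1015 CPM with JQ1, against 462, 529 and 474 CPM with vehicle (log2 fold change 0.89 ± 0.12, adjusted p = 8.9e-05). Ndufa4 (0.95 ± 0.11), Cox5b (0.97 ± 0.13) and Uqcrb (1.10 ± 0.15), subunits of respiratory complexes, rose in the same way and still passed after subtraction, at 0.82, 0.88 and 1.15. Of 10 mitochondrially encoded genes, which were all cardiomyocyte-high, 10 rose (median 1.39), and 8 did so after subtraction. mt-Nd1 had 9249, 12340.0 and 13181 CPM with JQ1, against 3671, 4098 and 4139 CPM with vehicle (1.55 ± 0.29, adjusted p = 0.0011), and mt-Cytb 9269, 9745 and 14774 CPM, against 4446, 4577 and 4348 CPM (1.34 ± 0.28, adjusted p = 0.0024). Of 17 glycolysis genes 12 rose and none fell (70.6% called, against 38.0% over all genes), and 11 rose after subtraction. Gapdh had 568, 559 and 581 CPM with JQ1, against 218, 245 and 223 CPM with vehicle (1.32 ± 0.16, adjusted p = 4.4e-05), and the glucose transporter Slc2a1, which is not cardiomyocyte-high, had 39.97, 43.7 and 45.9 CPM with JQ1, against 21.7, 22.8 and 25.5 CPM with vehicle (0.89 ± 0.14, adjusted p = 0.00038). Of 28 cytosolic ribosomal protein genes 12 rose and none fell (median 0.22), and none was cardiomyocyte-high. The called share was 42.9%, near the 38.0% over all genes. After subtraction 15 rose, in the fit with a replicate block 8 rose, and with 1 library left out 9 to 14 rose. Rps2 rose most (0.65 ± 0.08, adjusted p = 6.8e-05). With the marker sum as a covariate 4 of the 38 oxidative phosphorylation genes and 9 of the 10 mitochondrially encoded genes rose. In the same fit 4 of 17 glycolysis genes and 3 of 28 ribosomal protein genes rose. Over all genes that fit called 867 rises, against 2764 without the covariate. The part of cardiomyocyte RNA in the rises of these lists was not tested beyond the subtraction and the covariate.

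Of the 30 cardiomyocyte markers themselves 19 rose and none fell (median 1.41). After subtraction 3 rose and 1 fell, but the subtracted share was set by the sum of these same 30 markers. The removal of their sum was thus built in, and the lost calls test nothing about them. The fold changes of single markers did not vanish: their median after subtraction was 2.19. Tnnt2 stood at 2.93 (adjusted p = 0.091) and Atp2a2 at -2.99 (adjusted p = 0.13) after it. Before subtraction, 10 markers rose without JQ1 replicate 3, and 4 without vehicle replicate 1 or 3. Tnnt2, cardiac troponin T, had 829, 749 and 980.4 CPM with JQ1, against 211, 292 and 218 CPM with vehicle (1.83 ± 0.42, adjusted p = 0.0067), and Myh6, the adult myosin heavy chain, 3080.3, 2287 and 3059 CPM, against 1180.4, 1819 and 1151 CPM (1.02 ± 0.32, adjusted p = 0.026). Pln, which encodes phospholamban, had 334, 359.8 and 458 CPM with JQ1, against 153, 188 and 141 CPM with vehicle (1.26 ± 0.34, adjusted p = 0.016). In the cardiomyocyte fraction these genes stood at 6304 ± 366, 45390.0 ± 1042 and 2839.6 ± 271 CPM with JQ1, in the order of naming. Myh6 missed the threshold without JQ1 replicate 1 or 3 or vehicle replicate 1 or 3 (0.91 to 0.97), and Pln without vehicle replicate 1 (1.22) or 3 (1.17). Nppa, atrial natriuretic peptide, overlapped between the groups (27.8, 39.1 and 93.3 CPM with JQ1, against 12, 37.8 and 24 CPM with vehicle).

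The largest changes in genes that were not cardiomyocyte-high ran across several functions. By rule these were called genes with at least 10 CPM in the higher group and no overlap. Btbd11 rose most, with 19, 18 and 18.9 CPM in JQ1, against 3.28, 3.3 and 3.002 CPM in vehicle libraries (log2 fold change 2.54 ± 0.18, adjusted p = 9.5e-07). Fzd3, a Wnt receptor, had 28.3, 27.5 and 32.8 CPM with JQ1, against 6.21, 6.43 and 3.69 CPM with vehicle (2.44 ± 0.20, adjusted p = 2e-06). Among the others was Cnnm4, a magnesium transporter, which had 113, 105 and 97.5 CPM with JQ1, against 25.3, 29 and 25.2 CPM with vehicle (1.99 ± 0.10, adjusted p = 2.9e-07), with replicates close together. Besides the histone genes Hist1h2bc and Hist1h1c given above, the rule also named the rises of the noncoding AK017143 (2.10), Larp1b (1.97), the thiolase Acat2 (1.94), Fgfr2, a fibroblast growth factor receptor (1.89), the imprinted retrotransposon-derived gene Peg10 (1.87), Lonrf3 (1.76) and Nptxr, a pentraxin receptor (1.76). The reads of overlapping genes cannot be told apart by strand here. Besides Cx3cr1, Ciita and Gli1, the largest falls included myeloid genes. Lair1, an inhibitory collagen receptor of leukocytes, had 1.31, 1.55 and 0.56 CPM with JQ1, against 6.12, 15.1 and 8.92 CPM with vehicle (-3.15 ± 0.38, adjusted p = 5.4e-05), and Clec4a1, a lectin of myeloid cells, had 2.11, 2.9 and 1.4 CPM with JQ1, against 11.4, 16.1 and 17.2 CPM with vehicle (-2.81 ± 0.27, adjusted p = 9e-06). The class II pseudogene H2-Ea-ps (-2.85) and Sla, an adaptor of lymphocyte receptors (-2.60), fell as well. Nav3, a regulator of microtubules, had 3.41, 7.76 and 2.89 CPM with JQ1, against 37.9, 24.6 and 37.4 CPM with vehicle (-2.84 ± 0.40, adjusted p = 0.00033), and the tyrosine phosphatase Ptprr (-3.09) and Krba1 (-2.45) fell too. Among cardiomyocyte-high genes the largest rises were Nmrk2 (2.17), Tnnc1 (1.90), Fabp3 and Tnnt2, of which Fabp3 was called after subtraction. Tnnc1, Fabp3 and Tnnt2 are among the markers that set the subtraction, so it is no test of them. The largest falls among cardiomyocyte-high genes were Zfp827 (-1.67), Gbp10 (-1.66), Igtp (-1.50) and Acsf3 (-1.38).

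JQ1 in PLNR9C non-myocytes, with 3 libraries each and none in common with wild type, gave 2563 risen (16.7%) and 2986 fallen genes (19.5%). Of these, 1754 also rose in wild type, 63.5% of the wild type rises and 68.4% of the PLNR9C rises. The fallen genes shared numbered 2201, which is 71.9% of the wild type falls and 73.7% of the PLNR9C falls. Genes called in opposite directions numbered 9, all risen in wild type. Across the 15347 genes, which are not independent, the log2 fold changes correlated at r = 0.81. The cardiomyocyte marker sum in PLNR9C was 2868 to 7549 CPM with JQ1 and 3640 to 4760 CPM with vehicle, so it overlapped, and of the 30 markers none rose and 1 fell with JQ1. The 11 class II genes fell there too (median -2.33), with Ciita at -3.44 ± 0.34, and 21 of 34 interferon genes fell. Hexim1 rose by 1.66 ± 0.14 and Tmem173 fell (-2.50 ± 0.13). The mitochondrially encoded genes rose in PLNR9C as well, 10 of 10 (median 1.70), whereas 3 of 38 oxidative phosphorylation genes rose. Mitochondrial reads there were 3.31 to 8.63% with JQ1 and 1.93 to 2.16% with vehicle. No gene passed the test of the difference between the genotypes (0.00%; 1391 at an unadjusted p under 0.05), and DESeq2 called 66. Smallest in p was Ak1, an adenylate kinase, with a difference of -1.31 ± 0.18 (adjusted p = 0.068), ahead of Kcng2, Csdc2, Prune2 and Oxct1 below 0 and of Ldlrad2, Wnt9a, Chek2, 4933427D14Rik and Exosc7 above 0. Without PLNR9C JQ1 replicate 1, the library with 7549 CPM of cardiomyocyte markers, 225 genes passed, and 220 of the 222 with a lower effect in PLNR9C were cardiomyocyte-high.

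In the fit of both fractions (15823 genes) JQ1 gave 2506 risen (15.8%) and 2589 fallen genes (16.4%) in wild type non-myocytes, against 616 risen (3.89%) and 643 fallen genes (4.06%) in wild type cardiomyocytes. In that fit 465 rose in both fractions, which is 18.6% of the non-myocyte rises and 75.5% of the cardiomyocyte rises. Another 436 fell in both, 16.8% and 67.8% in the same order. The difference between the fractions was tested itself. The JQ1 effect was higher in non-myocytes in 252 genes (1.59%), of which 153 were cardiomyocyte-high, and lower in 235 (1.49%), of which 11 were. In the 12 wild type libraries alone 494 were higher and 464 lower. Larp1b, an RNA-binding protein, averaged 64.1 ± 5.72 CPM in JQ1 and 16.4 ± 1.55 CPM in vehicle non-myocytes, against 70.4 ± 0.654 CPM and 59.4 ± 5.9 CPM in JQ1 and vehicle cardiomyocytes (difference 1.72 ± 0.18, adjusted p = 3.5e-05). Vehicle non-myocytes thus had the lowest CPM of these 4 groups, with CPM scaled within each fraction. Habp4, which binds hyaluronan and RNA, rose in both fractions, more in non-myocytes (difference 1.13 ± 0.14). Fbxw7, which marks cyclin E and Myc for destruction, rose in non-myocytes (0.42 ± 0.09) and fell in cardiomyocytes (-0.90 ± 0.13; difference 1.33 ± 0.18, adjusted p = 0.00029). Phtf2 (1.51 ± 0.19) and Abtb2 (1.54 ± 0.21) had differences of like size and were cardiomyocyte-high. On the other side, Tmub2 averaged 13.1 ± 0.734 CPM in JQ1 and 39.2 ± 4.78 CPM in vehicle non-myocytes, against 24.4 ± 1.05 CPM and 26 ± 0.721 CPM in JQ1 and vehicle cardiomyocytes (difference -1.49 ± 0.15, adjusted p = 3.5e-05). Rapgef4, the cyclic AMP sensor Epac2 (-1.74 ± 0.23), Kifap3, of the kinesin-2 motor (-1.10 ± 0.13), Wdr11 (-1.09 ± 0.13) and Ppp1r16a, a phosphatase subunit (-1.16 ± 0.15), differed in the same direction. Ciita fell in non-myocytes and stood at 2.37 ± 0.655 CPM with JQ1 and 2.66 ± 0.16 CPM with vehicle in cardiomyocytes (difference -2.69 ± 0.52, adjusted p = 0.0071). Cdk6 also differed (-1.71 ± 0.28, adjusted p = 0.0016). Hexim1 rose in cardiomyocytes by 1.59 ± 0.15, and its difference did not pass (-0.24 ± 0.21). With 1 library left out 124 to 218 genes were higher in non-myocytes, with 124, 128 and 133 without non-myocyte vehicle replicate 3, vehicle replicate 1 and JQ1 replicate 3, and 153 to 159 without cardiomyocyte JQ1 or vehicle replicate 1 or 2. Lower genes numbered 143 to 190, with 143 without non-myocyte vehicle replicate 3 and 155 and 146 without cardiomyocyte vehicle replicates 1 and 2.

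**Figure D5:**
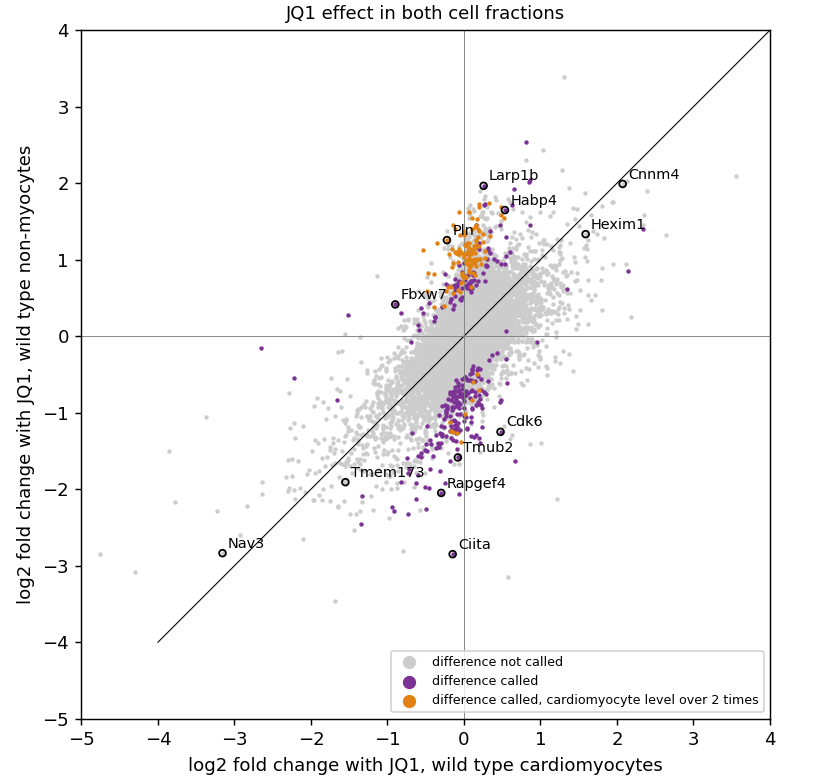
Log2 fold change with JQ1 in wild type non-myocytes (vertical) against wild type cardiomyocytes (horizontal) for 10335 genes with at least 10 CPM in a wild type non-myocyte group (3 lie outside the axes); grey points show no called difference, purple points a called difference, and orange points a called difference in a cardiomyocyte-high gene. The diagonal marks equal effects; Hexim1 and Cnnm4 lie near it, Larp1b, Habp4 and Fbxw7 above it, and Ciita, Rapgef4 and Tmub2 below it.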

How the data were processed

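RNA was sequenced from cell pools of mouse hearts, and reads were counted by the authors in genes. The deposited tables give, per the file headers, whole-number counts for each gene and library beside the authors' RPKM values. STAR 2.4.1b and GRCm38 (mm10) are named in the submitters' processing notes. The sources used here do not state the counter, annotation or strand setting. In the 8250 genes with at least 50 reads in every library, the gene length implied by counts and deposited RPKM was constant across libraries within 0.1%. The RPKM values were therefore not tested, and tests used the counts. The 12 non-myocyte libraries (wild type and PLNR9C, JQ1 and vehicle, 3 each) were fitted together with edgeR 4.0.16 in R 4.3.3 (TMM scaling, filterByExpr by group, robust quasi-likelihood test), with no block. P-values were Benjamini-Hochberg adjusted over 15347 genes, and a gene was called at an adjusted p under 0.05. All adjusted p-values in the text are from these edgeR fits unless DESeq2 is named. Fold changes are log2 of JQ1 over vehicle ± SE. Levels are CPM on the TMM-scaled library size, scaled within each cell fraction and so not on one scale between fractions. They are not corrected for gene length, so a level of one gene is not comparable with that of another. The difference between genotypes came from the same fit, and the difference between cell fractions from a fit of all 24 fraction libraries (15823 genes). To subtract cardiomyocyte RNA, the marker sum of each library was divided by that of the cardiomyocyte group of the same genotype and treatment, and this share of that group's profile was removed. The edgeR fits and the subtraction were also run on simulated counts, and the outcome is not given here.

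Genes were named by a rule: a called gene without a predicted symbol, whose higher group averaged 10 CPM or more and whose 3 and 3 libraries did not overlap; the 12 largest rises and 12 largest falls among genes that were not cardiomyocyte-high, and 4 of each among those that were; up to 4 called members of each list by p; up to 5 per direction for each interaction; and a set of genes that were always named. Some genes that this rule picks are not reported here. Others were named after their values were seen, namely Hexim2, Mepce, Polr2a, H2-Ab1, H2-Aa, H2-Eb1, Cd74, Gbp2, Gbp5, Iigp1, Stat2, Irf1, Irf7, Irf8, Mrc1, Lyve1, Cd4, Cd3e, Ccl12, Inhba, Tgfbr1, Tgfbr2, Hgf, Ptch1, Cdkn2b, Hba-a2 and Alas2. The comparison and the 42 gene lists were chosen with earlier results of these data known. Alternatives were DESeq2 1.42.0 (also its size factors), other filters, the 6 libraries alone, a replicate block, the marker sum as covariate, subtraction, removal of cardiomyocyte-high genes, and single libraries left out. Counting error only is covered by the floor of 3 reads per library used for genes without reads.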

Additional observations from a re-analysis of the deposited data

Results flagged for a closer look

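The effect of JQ1 differed between wild type non-myocytes and wild type cardiomyocytes, by the interaction test over 24 libraries, in 28 of the genes named here. The values are differences of log2 fold change, non-myocytes minus cardiomyocytes. Over all 15823 genes the effect was higher in non-myocytes in 252 (1.59%) and lower in 235 (1.49%). Larp1b, Habp4, Phtf2, Fbxw7, Abtb2, Tmub2, Kifap3, Wdr11, Rapgef4 and Ppp1r16a were named for their small p in this same test. Their passing was thus set by that choice and adds nothing to the count. The effect was higher in non-myocytes for Btbd11 (1.74), Larp1b (1.72), Abtb2 (1.54), Phtf2 (1.51), Pln (1.49), Fbxw7 (1.33), Hist1h1c (1.28), Hist1h2bc (1.19), Habp4 (1.13), Uqcrb (1.07), Kcng2 (1.00), Gapdh (0.99), Cox5b (0.89), Ndufa4 (0.86), Ccng1 (0.84), Sod2 (0.77) and Prdx1 (0.69). Of these, Abtb2, Phtf2, Pln, Uqcrb, Kcng2, Gapdh, Cox5b, Ndufa4, Ccng1 and Sod2 were cardiomyocyte-high, in libraries whose cardiomyocyte marker sum was 12138 to 15872 CPM with JQ1 and 4970 to 7467 CPM with vehicle. The part of that sum in these differences was not tested. The effect was lower in non-myocytes for Ciita (-2.69), Rapgef4 (-1.74), Cdk6 (-1.71), Tmub2 (-1.49), Acsf3 (-1.32), Ppp1r16a (-1.16), Kifap3 (-1.10), Krba1 (-1.10), Wdr11 (-1.09), Zmynd8 (-0.73) and Sesn2 (-0.71). Sesn2 rose in both fractions and Zmynd8 and Krba1 fell in both.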

How the results depend on the processing

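Counts of risen and fallen genes in wild type non-myocytes were 2849 and 3009 with DESeq2 size factors, 2565 and 2944 without a filter, 2786 and 3080 with a 1 CPM filter, 2906 and 3029 with DESeq2, 2595 and 2909 in the 6 libraries alone, 2631 and 2950 after subtraction, 2309 and 2756 without cardiomyocyte-high genes, and 2261 to 2438 and 2574 to 2707 without single libraries. With the marker sum as covariate they were 867 and 1185. The marker sum itself (log2 JQ1 over vehicle) was 1.08 unscaled and 1.17 to 1.49 without single libraries. The genotype difference gave 66 genes with DESeq2 and 0 to 225 without single libraries (225 without PLNR9C JQ1 replicate 1, at most 1 otherwise). The difference between fractions gave 494 higher and 464 lower genes in the 12 wild type libraries, and 124 to 218 and 143 to 190 without single libraries.

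Same-numbered JQ1 and vehicle libraries did not deviate together (r = 0.15, -0.15 and -0.01). With deviations from means of 3 libraries this cannot exclude a pairing. With the replicate block 2398 genes rose and 2740 fell, 1 of 10 lymphocyte markers fell, the genotype difference gave 0, and the fraction difference gave 579 higher and 570 lower.

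Of 202 called genes checked, 202 stayed called with DESeq2, 183 after subtraction and 112 with the covariate. Directions that turned were, with the covariate, Myh6 (-0.22), Nppa (-0.13) and Irf1 (-0.048). After subtraction they were Atp2a2 (-2.99), Kcng2 (-3.97), Cd3e (-0.85) and Lyve1 (0.032). Myh6, Nppa and Atp2a2 are among the markers whose sum set both the covariate and the subtraction, so neither tests them. Without single libraries, Col1a1 spanned -0.063 to 0.26, Col3a1 -0.20 to 0.35, Postn -0.021 to 0.38, Pecam1 -0.15 to 0.0036, Rgs5 -0.044 to 0.084, Irf1 -0.16 to 0.68, and Lyve1 -0.15 to 0.055. With DESeq2 2 genes rose among the BET inhibitor markers, the Myc and Max network and the circadian clock genes each, against 1 each. The cause was not tested. With 3 pools a group, no single-value permutation test can go below p = 0.10.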
